A study of Mus musculus with 6 samples.

Results

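The variable (V) segments of the immunoglobulin light chains were taken from a table of raw exon counts as every gene whose symbol begins with Igkv (kappa) or Iglv (lambda). The rule used no measured value. It gave 107 of the 39017 genes of the table, 104 kappa and 3 lambda segments, and 103 of them had enough counts to be tested. The counts came from induced germinal centre B cells (iGBs), which are splenic B cells grown on 40LB feeder cells, a fibroblast line that displays CD40L and secretes BAFF, with IL-4 at 5 ng/ml per the labels, whereas the study's methods give a lower dose. Control iGBs came from 3 C57BL6/J mice that carry Cγ1-cre, and Prmt1-null iGBs came from 3 mice of the same strain that carry Cγ1-cre with both Prmt1 alleles floxed (Cγ1-cre Prmt1 F/F). RNA was taken on day 3.5 from cultures depleted of feeder cells, each mouse gave 1 library, and each group had 2 females and 1 male, the male being Control replicate 1 and Prmt1-null replicate 3. Both groups carry the Cre, which is driven from the switched constant gene locus and so acts in activated, mature B cells. The labels used here do not give the ages of the mice.

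A light chain is encoded by a V segment joined to a J segment and spliced to a constant gene, and a B cell normally keeps 1 productive light chain. Kappa is tried before lambda in most developing B cells, and in the mouse kappa carriers far outnumber lambda carriers. Kappa V segments lie in both orientations: those oriented like the J segments are joined by deleting the DNA in between, and those in the opposite orientation by inverting it. Repeated rearrangement at the kappa locus can replace a proximal V segment by a more distal one. In a mixed population, the share of V counts that falls on a segment reflects how many cells express it and how much RNA each of them holds, and fewer cells of a type and less RNA per cell cannot be told apart in these bulk samples.

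Which sequences were being counted matters for this family because many segments are near copies of each other. Of the members, 101 could be matched by gene ID and symbol to GENCODE release M21 on GRCm38 (mm10, the build of the counts), 97 as V genes and 4 as V pseudogenes. Over the aligned part of the 300 bases at the 3′ end of the V transcripts, the median identity to the closest other V segment was 94.7%. There were 48 members at least 95% identical to another V segment, and together they held 63.4% of the light chain V counts. As reads that aligned to at most 2 places were kept, the split of counts between such neighbours is uncertain. The pair most used of the Igkv1 family, a pair of lambda segments and a trio of the Igkv10 family were chosen as examples of close relatives with unlike usage, and capitals mark the bases that differ from the first sequence of each set when aligned without gaps.

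The most used member was Igkv1-117 (chr6:68121046-68121827, plus strand), and Igkv1-110 (chr6:68270485-68271267, plus strand) differed from it at 10 of the last 300 bases of the V transcript (96.7% identity).
Igkv1-117: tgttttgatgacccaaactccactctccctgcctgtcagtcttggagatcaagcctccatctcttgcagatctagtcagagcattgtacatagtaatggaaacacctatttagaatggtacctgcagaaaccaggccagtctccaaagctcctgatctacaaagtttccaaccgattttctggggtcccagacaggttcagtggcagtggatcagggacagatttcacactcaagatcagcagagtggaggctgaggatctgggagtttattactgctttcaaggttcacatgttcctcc
Igkv1-110: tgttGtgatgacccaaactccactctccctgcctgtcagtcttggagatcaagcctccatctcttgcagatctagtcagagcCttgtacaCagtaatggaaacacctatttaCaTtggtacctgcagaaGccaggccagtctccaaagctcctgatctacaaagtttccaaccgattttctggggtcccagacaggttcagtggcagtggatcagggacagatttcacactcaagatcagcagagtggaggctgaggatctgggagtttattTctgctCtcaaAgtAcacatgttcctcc
Iglv1 (chr16:19085017-19085500, minus strand) and Iglv2 (chr16:19260401-19260859, minus strand) differed at 8 of their last 300 bases (97.3% identity).
Iglv1: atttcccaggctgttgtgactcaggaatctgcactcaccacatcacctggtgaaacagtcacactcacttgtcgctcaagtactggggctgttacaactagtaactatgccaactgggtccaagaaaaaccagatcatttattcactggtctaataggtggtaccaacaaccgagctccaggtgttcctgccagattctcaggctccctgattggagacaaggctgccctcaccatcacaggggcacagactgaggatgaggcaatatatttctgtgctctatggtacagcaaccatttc
Iglv2: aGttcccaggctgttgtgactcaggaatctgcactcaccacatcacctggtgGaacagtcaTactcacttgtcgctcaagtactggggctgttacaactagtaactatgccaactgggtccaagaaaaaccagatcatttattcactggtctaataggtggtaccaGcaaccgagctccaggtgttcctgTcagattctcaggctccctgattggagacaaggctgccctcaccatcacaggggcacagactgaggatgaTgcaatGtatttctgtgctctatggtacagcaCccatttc
Igkv10-96 (chr6:68631963-68632442, minus strand), Igkv10-94 (chr6:68704508-68704978, minus strand) and Igkv10-95 (chr6:68680379-68680848, plus strand) were compared over the same length, where Igkv10-94 differed from Igkv10-96 at 16 and Igkv10-95 at 19 bases.
Igkv10-96: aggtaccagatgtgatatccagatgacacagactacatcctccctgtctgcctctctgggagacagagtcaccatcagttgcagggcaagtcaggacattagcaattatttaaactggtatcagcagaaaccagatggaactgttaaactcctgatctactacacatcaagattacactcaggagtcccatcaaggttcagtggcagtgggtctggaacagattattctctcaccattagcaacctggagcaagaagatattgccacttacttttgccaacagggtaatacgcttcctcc
Igkv10-94: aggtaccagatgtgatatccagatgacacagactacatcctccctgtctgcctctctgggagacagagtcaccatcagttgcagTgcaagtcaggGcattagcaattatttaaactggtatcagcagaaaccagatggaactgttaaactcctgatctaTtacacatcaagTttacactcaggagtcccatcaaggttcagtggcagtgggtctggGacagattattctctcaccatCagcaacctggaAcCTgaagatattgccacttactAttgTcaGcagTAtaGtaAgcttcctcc
Igkv10-95: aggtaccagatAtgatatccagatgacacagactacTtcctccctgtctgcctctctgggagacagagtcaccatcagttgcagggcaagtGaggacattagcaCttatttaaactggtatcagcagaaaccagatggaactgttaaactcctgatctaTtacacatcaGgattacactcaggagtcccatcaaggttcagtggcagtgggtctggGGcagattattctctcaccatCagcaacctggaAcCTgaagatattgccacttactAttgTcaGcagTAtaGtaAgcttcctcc

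The counts behind these values were deep. The 6 libraries held between 45343250 and 62774232 counts in all, and between 104391 and 145246 of them fell on light chain V segments. A floor of 3 counts corresponded to a share between 0.00207% and 0.00287% of the light chain V counts. Prmt1, the targeted gene, had 3964, 3925 and 4838 normalised counts in Control and 1745, 1478 and 1477 in Prmt1-null iGBs (log2 fold change −1.44, adjusted p = 1.11e-05, edgeR). Of the whole table, 218 of 18268 genes tested (1.19%) passed an adjusted p of 0.05 between the genotypes. This count depended on single libraries: it was 128, 60 and 350 without Control replicates 1, 2 and 3 and 51, 31 and 77 without Prmt1-null replicates 1, 2 and 3. The 6 B cell markers summed to between 6013 and 6322 CPM (counts normalised to the library total) in Control and between 6405 and 6553 CPM in Prmt1-null iGBs, whereas the 5 T cell markers summed to at most 2.27 CPM.

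Usage was spread over many segments but was far from even. Usage is given as the share of the summed Igkv and Iglv counts of a library, and means are over the 6 libraries unless a group is named. There were 36 segments with a mean share over 1%, which together held 75.6% of the counts, and the 10 most used segments held 37.8%. The 17 most used segments were enough to reach 50.7% of the counts. At the other end, 21 segments had a mean share under 0.1% and together held 0.794%. The most used segment had 8.83 times the share of the segment ranked 50th.

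Igkv1-117 led in every library. Its share was 6.18%, 6.09% and 5.73% in Control replicates 1 to 3 and 5.94%, 5.60% and 6.20% in Prmt1-null replicates 1 to 3. The groups overlapped, and with 6452 to 8848 counts on this segment the 95% Wilson interval was narrow, for example 6.04% to 6.33% in Control replicate 1. Igkv6-15 (chr6:70406469-70406992, minus strand), near the joining end of the locus, was the next most used segment of the kappa locus, with 4.34%, 4.83% and 4.94% in Control and 5.31%, 4.67% and 4.85% in Prmt1-null iGBs. Prmt1-null replicate 1 was the highest and Control replicate 1 the lowest of these values, and the other 4 libraries lay between them.

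Below these came Igkv10-96, Igkv6-23 and Igkv1-110, with mean shares of 4.04%, 3.95% and 3.77%. Igkv10-96 took 3.97%, 4.11% and 3.86% in Control and 4.08%, 3.93% and 4.29% in Prmt1-null iGBs. Its neighbour Igkv10-94 had a mean share of 1.56% and Igkv10-95 only 0.119%, although the 3 sequences printed above are alike at over 93% of their bases. Igkv1-110 took 3.77%, 3.98% and 3.47% in Control and 3.74%, 3.63% and 4.01% in Prmt1-null iGBs, less than Igkv1-117 in every library. The remaining members of the 15 most used kappa segments were Igkv17-127, Igkv1-122, Igkv17-121, Igkv1-135, Igkv4-55, Igkv12-44, Igkv6-17, Igkv6-25, Igkv8-24 and Igkv3-2, with mean shares from 1.70% to 2.87%. Igkv17-127 and Igkv17-121 were 98% identical, so how counts divide between them is less certain than their sum. When counts were divided by exon length instead, which runs from 222 to 501 bases among the members, 13 of the 15 most used light chain segments stayed among the 15 most used.

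**Figure D1:**
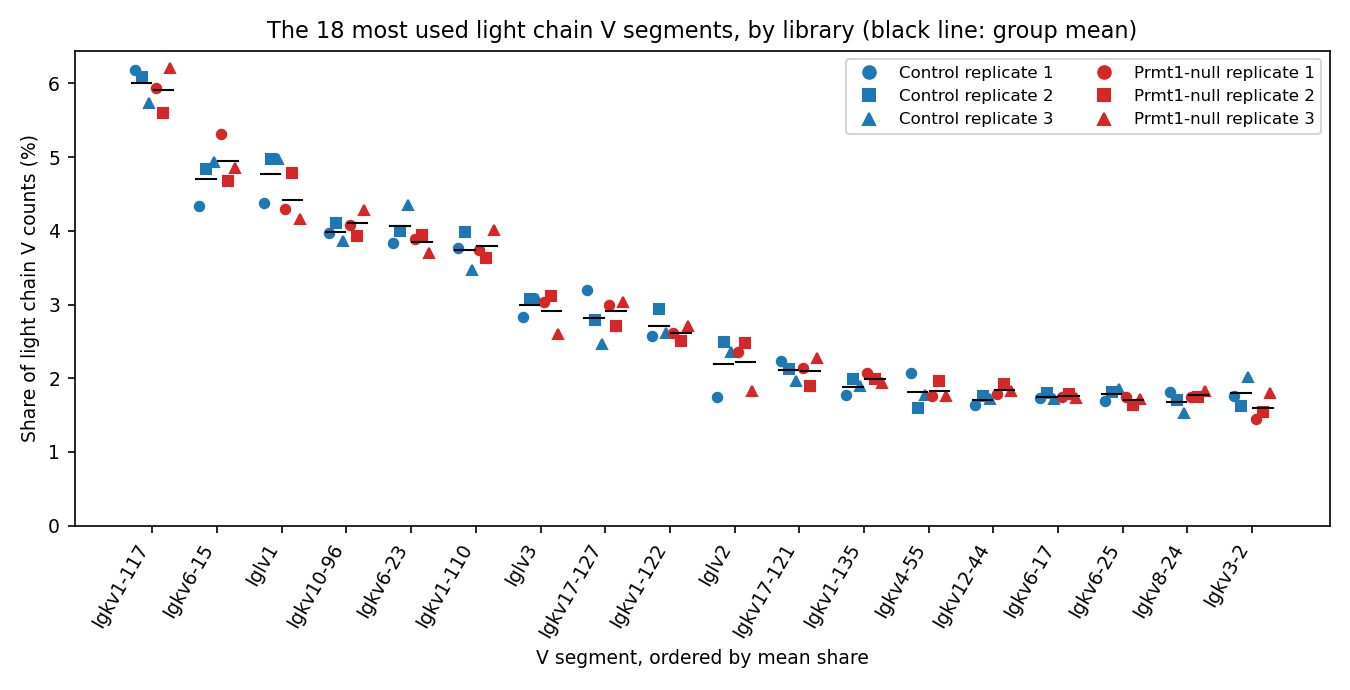
Share of light chain V counts (%) on the vertical axis for the 18 most used light chain V segments, ordered by mean share, with 1 point per library (blue Control, red Prmt1-null; circle, square and triangle for replicates 1, 2 and 3) and a black line at each group mean. Igkv1-117 sits at 5.60% to 6.20% in all 6 libraries, and the points of the 2 groups are intermingled for every segment but Igkv12-44, which was 1.64% to 1.77% in Control and 1.79% to 1.92% in Prmt1-null iGBs.

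Along the kappa locus usage was highest toward both ends. The segment symbols end in a position number that counts away from the J segments, and over the 98 kappa members with coordinates it never rose with the start coordinate. The V cluster is 3.15 Mb long, chr6:67555497-70704177, followed by Igkj1 to Igkj5 (chr6:70722562-70723927) and Igkc (chr6:70726435-70726966), both on the plus strand. Segments numbered 1 to 35 held 30.3% of light chain V counts, those numbered 36 to 70 held 18.4%, those from 71 to 105 held 15.5% and those from 106 to 140 held 26.0%. The most used segment of the distal end was Igkv1-117, and Igkv17-127, Igkv1-122, Igkv17-121 and Igkv1-135 lie near it. Igkv6-15 and Igkv6-23 were the most used of the proximal end, and no segment numbered 36 to 70 exceeded the 1.82% of Igkv4-55.

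By orientation, the 60 kappa members on the minus strand, which are joined by inversion, took 48.8%, 48.96% and 48.7% in Control and 49.5%, 49.8% and 49.4% in Prmt1-null iGBs. The 38 on the plus strand took 40.4%, 38.5% and 38.9% in Control and 38.7%, 37.5% and 39.8% in Prmt1-null iGBs, and the 6 kappa members without a matched position held the rest of the kappa counts. The minus strand shares of the groups did not overlap, with a difference of 0.743 percentage points between the means. The fold changes did not separate by orientation in the same way, with a median log2 fold change of 0.02 over the 57 tested members on the minus strand and 0.01 over the 37 on the plus strand. This sum was compared after its values had been seen and was given no test.

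**Figure D2:**
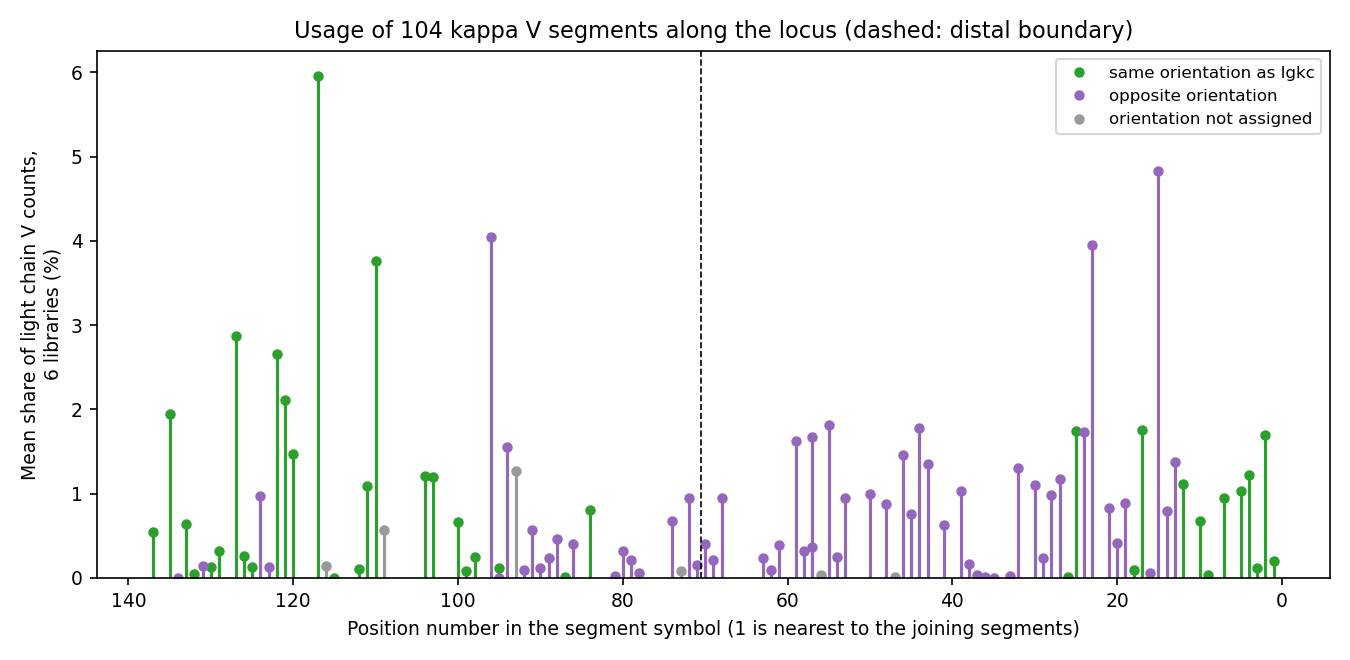
Mean share of light chain V counts over the 6 libraries (%) on the vertical axis against the position number of each of the 104 kappa segments on the horizontal axis, with the J segments to the right. Green segments are oriented like Igkc, purple ones are opposite and grey ones were not assigned an orientation; the segments over 1% that are numbered from 106 upward are green, led by Igkv1-117 at 5.96%, while Igkv10-96 at 4.04% and Igkv6-15 at 4.82% are purple.

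Grouped by sequence family, which the first number of a symbol gives, 19 kappa families were measured and 11 of them held over 2% of the counts. Igkv6 led with 16.4% ± 0.598 in Control and 16.4% ± 0.489 in Prmt1-null iGBs (SD, n = 3 each), from 9 members. Igkv1 followed with 15.7% ± 0.531 in Control and 15.7% ± 0.474 in Prmt1-null iGBs, from 11 members. Igkv4 was by far the richest family in members, with 27, and held 13.9% ± 0.611 in Control and 13.95% ± 0.562 in Prmt1-null iGBs, which is less per member than Igkv1 or Igkv6. The families Igkv3, Igkv8, Igkv10, Igkv17, Igkv12, Igkv5, Igkv9 and Igkv14 had mean shares between 2.13% and 7.04%. Igkv3 was 7.47%, 6.80% and 7.73% in Control and 6.61%, 6.47% and 7.16% in Prmt1-null iGBs, and Control replicate 2 lay below Prmt1-null replicate 3. The groups overlapped for each of the 11 families over 2%. Of the 8 smaller kappa families, the groups did not overlap only for Igkv7, against 18.1% of all genes scaled by the light chain V sum. Its single member, Igkv7-33, held a mean share of 0.0276%. Control replicate 3 was at 0.02085% and Prmt1-null replicate 2 at 0.02079%, so the shares barely parted. In normalised counts the groups overlapped, with 26.4 in Control replicate 3 and 27.4 in Prmt1-null replicate 3.

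**Figure D3:**
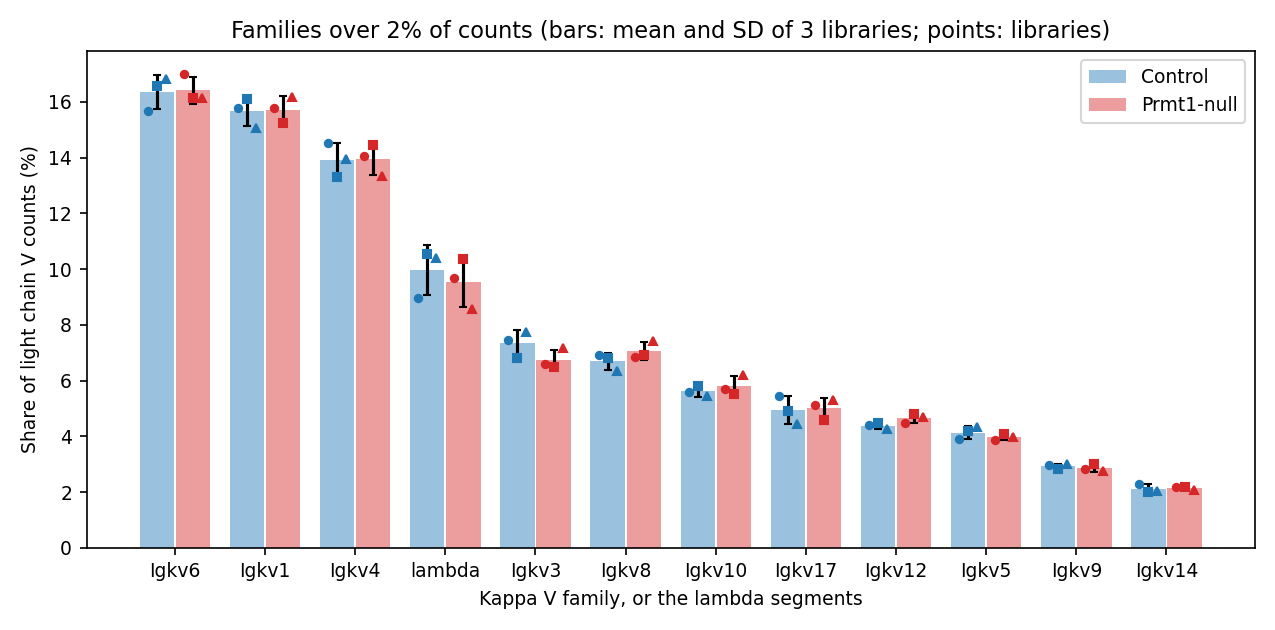
Share of light chain V counts (%) on the vertical axis for the 11 kappa families over 2% and for the lambda segments. Bars give the mean and error bars the SD of 3 libraries per group, and points are single libraries (blue Control, red Prmt1-null); the heights run from 16.4% for Igkv6 to 2.12% and 2.14% for Igkv14, and the points of the groups overlap in every family drawn.

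The lambda locus contributed 3 segments that were each among the 10 most used of all light chain V segments. Iglv1, the most used of them, took 4.37%, 4.97% and 4.98% in Control and 4.30%, 4.79% and 4.16% in Prmt1-null iGBs. Iglv3 (chr16:19241207-19241690, minus strand) took 2.83%, 3.07% and 3.08% in Control and 3.03%, 3.11% and 2.60% in Prmt1-null iGBs. Iglv2, whose sequence is printed beside that of Iglv1, took 1.75%, 2.49% and 2.36% in Control and 2.36%, 2.47% and 1.82% in Prmt1-null iGBs. Control replicate 1 and Prmt1-null replicate 3 were the lowest of their groups for each of the 3 segments. Iglv1 and Iglv2 are close enough in sequence that the division of counts between them is uncertain, but Iglv3 was 63.5% identical to its closest V segment over the aligned bases. In the quasi-likelihood test of edgeR, with p adjusted by Benjamini-Hochberg over all genes tested, the log2 fold change of Prmt1-null against Control iGBs was −0.10 (95% interval −0.24 to 0.04, adjusted p = 0.554) for Iglv1, and −0.16 without Control replicate 1. It was 0.02 (95% interval −0.24 to 0.28, adjusted p = 0.966) for Iglv2 and −0.03 (95% interval −0.17 to 0.12, adjusted p = 0.894) for Iglv3, and the sign of each turned when a single library was left out.

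Summed over the 3 segments, the lambda share of light chain V counts was 8.95%, 10.5% and 10.4% in Control replicates 1 to 3 and 9.69%, 10.4% and 8.58% in Prmt1-null replicates 1 to 3. The means were 9.96% ± 0.884 against 9.55% ± 0.905 (SD, n = 3 each), a difference of −0.417 percentage points that was smaller than either SD (two-sided exact permutation test, p = 0.5). With 3 against 3 libraries this test cannot give a p under 0.1, and it took no account of the sex of the mice. Without Prmt1-null replicate 3, the male of its group, the difference was 0.066 percentage points, the other direction. Within each sex the Prmt1-null shares were the lower ones. They were 8.58% against 8.95% in the males, and 9.69% and 10.38% against 10.53% and 10.41% in the females. This was seen in the data and was not tested. The lambda constant gene Iglc2 had a share of 29.1%, 29.7% and 30.7% in Control and 33.7%, 33.2% and 29.3% in Prmt1-null iGBs of the summed Igkc and Iglc2 counts, so that the lambda share was higher when read from these constant genes than from V segments in every library. The genes Iglc1, Iglc3 and Iglc4 and the lambda J segments had no row under these symbols in the table. In sequence, Iglc2 is close to Iglc3.

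Usage was also compared between single libraries. Each library is its own mouse, culture and preparation, and these cannot be told apart. The 2 libraries of each pair were compared over the segments with at least 10 counts in every library, and chi-square per degree of freedom, which is about 1 for 2 samples of independent reads from the same pool, lay between 7.13 and 13.8 over the 15 pairs. No 2 libraries were thus alike enough to be a repeat deposit of 1 library, which is all that this comparison was used for. The percentage of counts that would have to move to another segment to make 2 libraries alike was between 4.39% and 5.57% for the 3 pairs of Control libraries and between 4.13% and 5.76% for the 3 pairs of Prmt1-null libraries. It was between 4.41% and 5.79% for the 9 pairs taken across genotypes, with a median of 4.75%, so a Control and a Prmt1-null library differed about as much as 2 libraries of a group. On the log10 scale the shares of the members with at least 10 counts correlated with Pearson's r between 0.978 and 0.992 over the 15 pairs. These points share the libraries and the segments' lengths, so r is a description and carries no p.

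Among the 57 segments with a mean share over 0.5%, the highest library of a group was a median of 1.14 times the lowest in Control and 1.15 times in Prmt1-null iGBs. The segments that varied most within a group were Igkv2-137, Iglv2, Igkv15-103, Igkv4-74 and Igkv4-91. Igkv2-137 (chr6:67555497-67556216, plus strand), the most distal member, took 0.378%, 0.532% and 0.618% in Control and 0.590%, 0.583% and 0.546% in Prmt1-null iGBs. Control replicate 1 stood below the other 5 libraries, and the ratio of highest to lowest was 1.63 within Control and 1.08 within Prmt1-null iGBs. Igkv15-103 took 1.503%, 1.08% and 1.21% in Control and 1.11%, 1.08% and 1.21% in Prmt1-null iGBs, with the same library, Control replicate 1, now the highest. For Igkv4-74 the spread lay in the Prmt1-null group, at 0.604%, 0.646% and 0.672% in Control and 0.765%, 0.786% and 0.576% in Prmt1-null iGBs. Igkv4-91 took 0.629%, 0.544% and 0.585% in Control and 0.545%, 0.632% and 0.471% in Prmt1-null iGBs, and the lowest value was again Prmt1-null replicate 3.

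Whether loss of Prmt1 went with a change in light chain V usage was then asked, first for the repertoire as a whole. In CPM, the summed light chain V counts were 2303, 2314 and 2281 in Control replicates 1 to 3 and 2253, 2216 and 2449 in Prmt1-null replicates 1 to 3. The means were 2299 ± 17.02 against 2306 ± 126 CPM (SD, n = 3 each), a ratio of 1.00 (two-sided exact permutation test, p = 1). Prmt1-null replicate 3 was the highest of the 6, and leaving it out gave a difference of −65.1 CPM.

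The effective number of segments, which is the number of equally used segments that would give the same inverse Simpson index, was 44.7, 42.3 and 43.7 in Control replicates 1 to 3 and 43.3, 44.5 and 43.6 in Prmt1-null replicates 1 to 3. The means were 43.6 ± 1.20 against 43.8 ± 0.626 (two-sided exact permutation test, p = 1), and the difference of 0.262 was below both SDs. The distal share, taken as the share of kappa V counts on segments numbered above 70, was 46.6%, 46.1% and 44.9% in Control replicates 1 to 3 and 45.9%, 45.7% and 46.6% in Prmt1-null replicates 1 to 3. The means were 45.9% ± 0.862 against 46.1% ± 0.482, a difference of 0.216 percentage points (two-sided exact permutation test, p = 0.8). The groups overlapped in all 4 of these values, and each p adjusted over the 4 was 1.

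**Figure D4:**
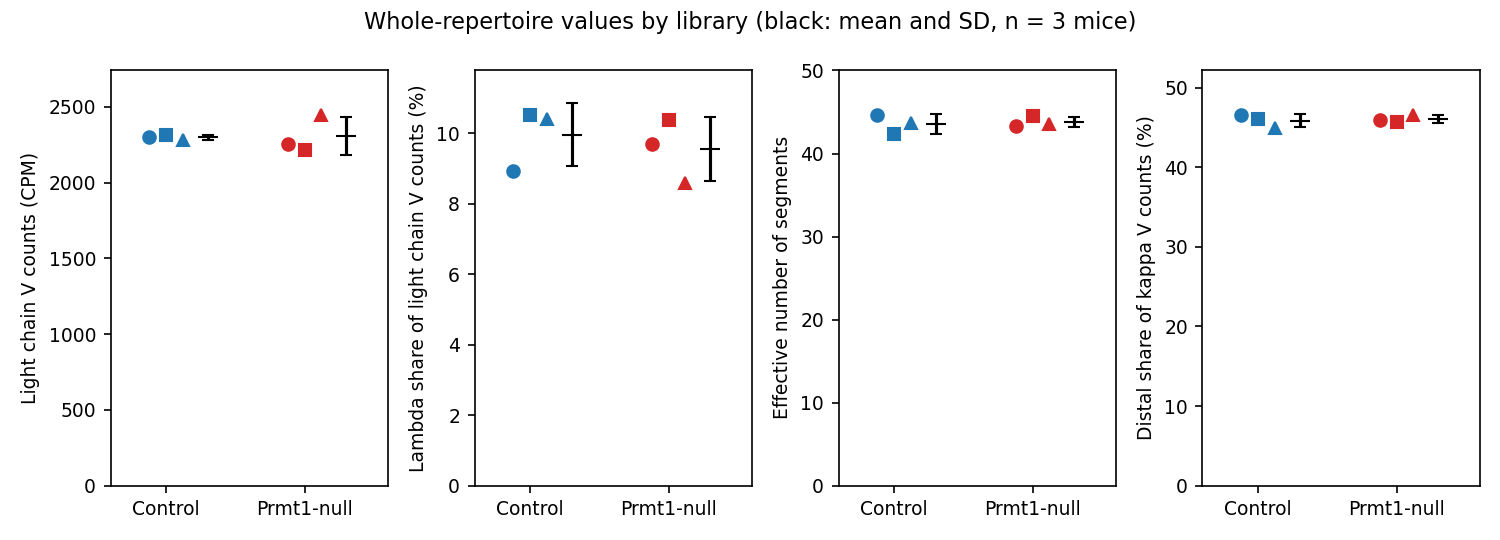
The summed light chain V CPM, the lambda share of light chain V counts (%), the effective number of segments and the distal share of kappa V counts (%), each on its own vertical axis from 0, for the 3 Control (blue) and 3 Prmt1-null (red) libraries. Black marks give the mean and SD of each group, and in each panel the points of the groups overlap, for example at 42.3 to 44.7 and 43.3 to 44.5 effective segments.

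Next, single segments were tested with edgeR in the fit of all genes. Of the 103 members tested, 0 had an adjusted p under 0.05, against 1.19% of all genes tested. An unadjusted p under 0.05 was found for 6 members (5.83%), against 13.5% of all genes tested. DESeq2 called 3 of the 90 members to which it gave an adjusted p, against 5.42% of all such genes, and edgeR without a filter on low counts called 1 of 107, against 2.76% of all genes. There were 11 members (10.7%) whose normalised counts did not overlap between the groups, against 19.9% of all genes tested. Of these, 7 were higher in Prmt1-null iGBs (6.80% of the members, against 9.95% of all genes) and 4 were lower (3.88%, against 9.92%). The median log2 fold change of the members tested was 0.02, with 58 above 0 (56.3%), beside a median of −0.0008 and 49.9% above 0 over all genes tested. For the 36 segments with a mean share over 1%, the log2 fold changes lay between −0.31 and 0.27, and their 95% intervals between −0.52 and 0.43. The median half-width of these intervals was 0.20 for segments over 1% and 0.89 for those under 0.1%, so changes of the rarest segments were hardly measured at this depth.

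**Figure D5:**
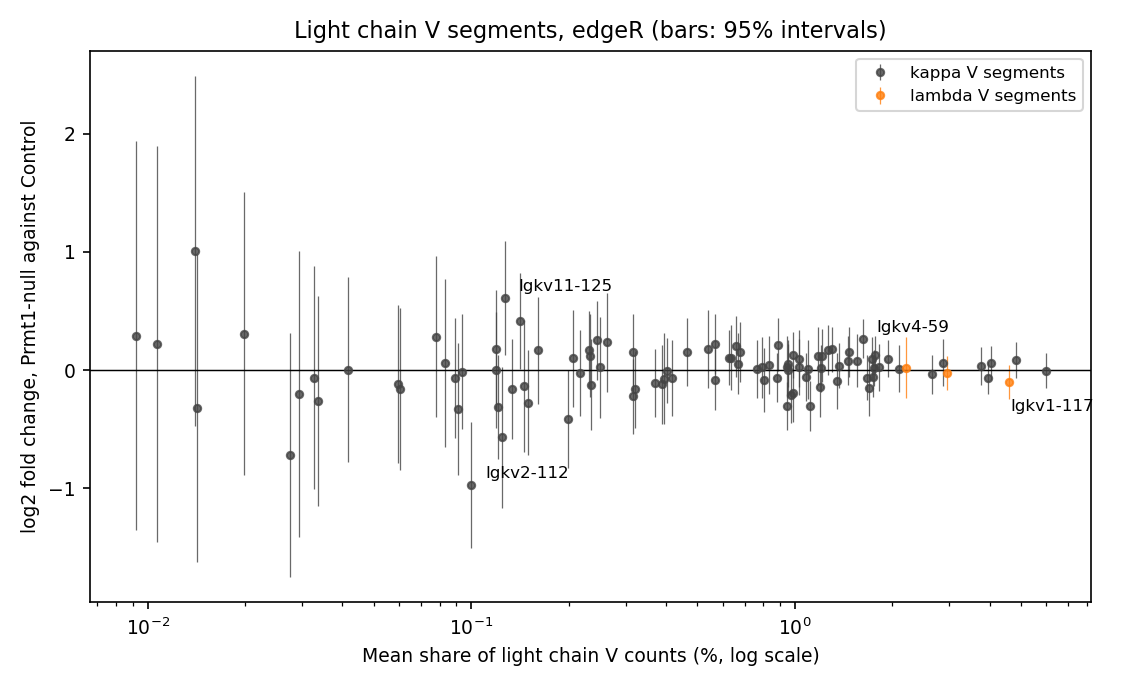
Log2 fold change of Prmt1-null against Control iGBs (edgeR) on the vertical axis against the mean share of light chain V counts (%, log scale) for the 103 members tested, with 95% intervals as bars, kappa in dark grey and lambda in orange. Segments over 1% lie between −0.31 and 0.27, intervals widen as shares fall, and Igkv2-112, at −0.97, is the lowest labelled point.

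Igkv2-112 (chr6:68219981-68220706, plus strand) was the member with the smallest adjusted p. It is a rare segment that lies between Igkv1-117 and Igkv1-110, and over the aligned bases at the 3′ end its V transcript was 86.7% identical to the closest other V segment, Igkv2-107. Its 3′ stretch is shown to tell it from the frequent Igkv1 segments on either side.
Igkv2-112: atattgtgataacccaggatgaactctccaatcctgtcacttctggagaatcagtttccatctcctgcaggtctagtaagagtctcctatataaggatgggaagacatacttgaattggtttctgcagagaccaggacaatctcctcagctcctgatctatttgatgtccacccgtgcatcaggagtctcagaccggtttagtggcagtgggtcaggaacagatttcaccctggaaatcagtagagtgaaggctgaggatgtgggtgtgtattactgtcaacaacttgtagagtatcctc
It had 175, 145 and 153 counts in Control and 87, 87 and 95 in Prmt1-null iGBs, which are shares of 0.168%, 0.0998% and 0.133% in Control and 0.0695%, 0.0646% and 0.0670% in Prmt1-null iGBs. The groups did not overlap, but the Wilson interval of the lowest Control library, from 0.0849% to 0.117%, met that of the highest Prmt1-null library, from 0.0563% to 0.0857%. The log2 fold change was −0.97 (95% interval −1.504 to −0.44, adjusted p = 0.0794). In DESeq2 the adjusted p was 0.0242 and in edgeR without a filter 0.0179, and in edgeR with a library left out it ran from 0.0878 to 0.284.

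The other members with the most negative fold changes, among those with at least 10 counts in every library, were Igkv7-33, Igkv14-130, Igkv3-1 and Igkv8-18. For Igkv7-33 the log2 fold change was −0.72 (95% interval −1.75 to 0.31, adjusted p = 0.563), from between 24 and 53 counts a library, and −0.46 without Control replicate 1. Igkv14-130, at 0.198%, 0.109% and 0.142% in Control and 0.0942%, 0.0728% and 0.129% in Prmt1-null iGBs, gave −0.57 (95% interval −1.16 to 0.03, adjusted p = 0.399), which was −0.31 without Control replicate 1, −0.36 without Prmt1-null replicate 2 and −0.85 without Prmt1-null replicate 3. Igkv3-1 (chr6:70703578-70704177, plus strand), the kappa member nearest to the J segments, took 0.244%, 0.176% and 0.267% in Control and 0.183%, 0.147% and 0.178% in Prmt1-null iGBs. Its log2 fold change was −0.41 (95% interval −0.83 to 0.001, adjusted p = 0.371). Igkv8-18 gave −0.33 (95% interval −0.89 to 0.23, adjusted p = 0.64), and its transcript was 97.99% identical to that of Igkv8-26, which had only 10 to 28 counts. The value of Igkv8-18 was −0.12 without Prmt1-null replicate 1. All of these are segments with a mean share of 0.2% or less, and none passed the test.

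The most positive fold changes by the same rule were those of Igkv11-125, Igkv2-116, Igkv4-81, Igkv1-99 and Igkv4-59. Igkv11-125 took 0.125%, 0.0792% and 0.0990% in Control and 0.164%, 0.173% and 0.122% in Prmt1-null iGBs. Its log2 fold change was 0.61 (95% interval 0.12 to 1.09, adjusted p = 0.233), and Control replicate 1 lay above Prmt1-null replicate 3 in share. Igkv2-116, whose gene ID had no position in the annotation used, took 0.120%, 0.119% and 0.128% in Control and 0.184%, 0.151% and 0.150% in Prmt1-null iGBs. The groups did not overlap, and the log2 fold change was 0.42 (95% interval 0.013 to 0.82, adjusted p = 0.349). Igkv4-81 and Igkv1-99 gave 0.31 (95% interval −0.89 to 1.502, adjusted p = 0.86) and 0.28 (95% interval −0.40 to 0.96, adjusted p = 0.763), with overlapping groups, and the sign of Igkv4-81 turned without Prmt1-null replicate 1. Without the same library the value of Igkv1-99 was 0.031, and it was 0.15 without Control replicate 2 and 0.55 without Prmt1-null replicate 3.

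Igkv4-59 (chr6:69438218-69438757, minus strand) was the 1 frequent segment among these. It took 1.53%, 1.44% and 1.47% in Control and 1.80%, 1.87% and 1.62% in Prmt1-null iGBs, with all Prmt1-null libraries above all Control libraries. The log2 fold change was 0.27 (95% interval 0.10 to 0.43, adjusted p = 0.115) in edgeR, and the adjusted p was 0.0296 in DESeq2. It was 97.3% identical to Igkv4-70, so the counts of these segments are not fully separable. Outside the rule for naming genes, and chosen after their values were seen, Igkv3-7 and Igkv3-12 were the frequent segments with the lowest fold changes. Igkv3-7 took 1.104%, 1.02% and 1.04% in Control and 0.831%, 0.863% and 0.841% in Prmt1-null iGBs. Its log2 fold change was −0.30 (95% interval −0.51 to −0.10, adjusted p = 0.149), and DESeq2 gave an adjusted p of 0.042. Igkv3-12 took 1.37%, 1.18% and 1.17% in Control and 0.963%, 0.988% and 1.03% in Prmt1-null iGBs. Its log2 fold change was −0.31 (95% interval −0.52 to −0.09, adjusted p = 0.171). For both the groups did not overlap.

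Taken as shares of light chain V counts, 6 members were higher and 6 lower in all Prmt1-null than in all Control libraries, which is 11.7% of those tested, against 18.1% of all genes scaled by the light chain V sum, 7.78% higher and 10.4% lower. With library size set to that sum, edgeR called 0 of the 103 members and 0.963% of all genes tested. In the TMM-scaled fit of all genes, the heavy chain V segments gave 0 calls among 106 tested and a median log2 fold change of −0.09, and their difference from the light chain segments was not tested.

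The genes that light chain segments are joined to and the factors that join and transcribe them were described from a list of 42 genes, of which 35 had a row in the table. Of its 31 tested rows, 0 passed an adjusted p of 0.05 in edgeR and 4 (12.9%, against 13.5% of all genes tested) had an unadjusted p under 0.05, while DESeq2 called 2 of the 28 rows to which it gave an adjusted p (7.14%, against 5.42% of all such genes). Of the 31 tested rows, 17 log2 fold changes were above 0, beside 49.9% of all genes tested, and the median was 0.02. The kappa constant gene Igkc had 86185, 92796 and 100802 normalised counts in Control and 100243, 95671 and 104020 in Prmt1-null iGBs, with overlapping groups. Its log2 fold change was 0.10 (95% interval −0.04 to 0.24, adjusted p = 0.562), and it was 0.05 without Control replicate 1 and 0.16 without Control replicate 3. Iglc2 had 35366, 39220 and 44661 normalised counts in Control and 51027, 47648 and 43107 in Prmt1-null iGBs. Control replicate 3 lay above Prmt1-null replicate 3, and the log2 fold change was 0.25 (95% interval 0.06 to 0.44, adjusted p = 0.201). The adjusted p of Iglc2 was 0.041 in DESeq2, 0.0142 in edgeR without a filter and 0.0421 in edgeR without Control replicate 3, and with any other library left out it ran from 0.201 to 0.515.

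Of the genes for the surrogate light chain and its relatives, which pair with the heavy chain before a light chain is made, Vpreb1, Vpreb2 and Igll1 were at or near 0 in all libraries, with no more than 6.62 normalised counts. Vpreb3, which B cells keep expressing after that stage, had 13710, 11656 and 14683 normalised counts in Control and 16040, 17297 and 16487 in Prmt1-null iGBs. It was named after its values were seen. The groups did not overlap, and its log2 fold change was 0.32 (95% interval 0.15 to 0.48, adjusted p = 0.0749). DESeq2, with an adjusted p of 0.00269, and the edgeR fits without a filter and without Control replicate 3 called it. Of the 8 tested genes of V(D)J recombination and end joining, the log2 fold changes had a median of 0.02. No groups were apart, against 19.9% of all genes tested. Of the 15 tested rows of light chain transcription factors, such as Pax5 and Irf4, 5 log2 fold changes were above 0, against 49.9% of all genes. Their median was −0.02 and the groups overlapped in each, whereas 19.9% of all genes tested did not overlap.

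Antibody-secreting cells hold far more light chain RNA than other B cells. The 5 measured markers of the plasma cell list (Sdc1, Prdm1, Xbp1, Irf4 and Tnfrsf17) summed to between 827 and 909 CPM in Control and between 943 and 1051 in Prmt1-null iGBs. Of the 4 tested, 4 had a log2 fold change above 0 and 0 passed the test. Irf4 and Xbp1 made up most of the sum, with mean normalised counts of 27160 and 18773 in Control, against 1497 for Prdm1 and 79.2 for Sdc1. The groups were apart only for Xbp1 and overlapped for Sdc1, Prdm1 and Irf4, whereas 19.9% of all genes tested were apart. The 6 fibroblast markers, listed for the feeder cells, summed to between 9.60 and 12.5 CPM in Control and between 13.1 and 17.3 in Prmt1-null iGBs. Of the 6, 1 was at 0 throughout, and their expression in the feeder cells was not measured. The 4 measured myeloid markers summed to between 29.2 and 35.5 CPM in all libraries. The part of these cells in the light chain values was not tested.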

How the data were processed

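RNA-seq was measured in 6 libraries, 3 of Control and 3 of Prmt1-null iGBs, 1 per mouse. The authors deposited raw counts for each gene. Per the submitters' processing notes and the study's methods, reads were trimmed (Trimmomatic 0.32) and aligned to mm10 (STAR 2.3.0e), alignments to more than 2 places were dropped, and the remaining reads were assigned to Ensembl exons (featureCounts 1.4.4), with no normalization. The strand setting is not given in the sources used here, so counts of genes that overlap on opposite strands are uncertain.

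As in the study's methods, chromosome Y (398 genes) was excluded. Genes were filtered by filterByExpr (minimum count 10), scaled by TMM and tested in edgeR 4.0.16 (R 4.3.3) with the quasi-likelihood test, with p adjusted by Benjamini-Hochberg over all 18268 genes tested and called under 0.05. Intervals of fold changes come from each gene's standard error in this fit, which includes the spread between mice. Normalised counts are TMM-scaled counts at the mean library size. Shares are counts of a segment over the summed Igkv and Iglv counts. For the 4 whole-repertoire values, all 20 arrangements of the libraries were enumerated in an exact, two-sided permutation test, without regard to sex. DESeq2 1.42.0 was an alternative, as were other scalings and filters, the replicate number as a block, sex as a covariate and leaving out each library. Annotation and V transcripts are from GENCODE M21 (GRCm38), whose sequences were aligned with Biopython. Wilson intervals of shares and the floors cover counting error only, since reads carry no molecular identifiers. The p-values measure the spread between 3 mice a group.

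The members and gene lists were chosen with earlier results of these data known. Named were all lambda segments, the 15 kappa segments with the highest mean share, every member called, the 5 largest rises and 5 largest falls among members with at least 10 counts in every library, the 5 members over 0.5% that varied most within a group, and families over 2%. Of the lists, Igkc, Iglc2 and called genes were named.

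Of the 107 members, 4 gene IDs carry another V symbol in M21 and 2 are absent from it, so no position was given for these 6. The 4 members not tested, with 0 to 10 counts a library, were Igkv1-115, Igkv1-35, Igkv17-134 and Igkv2-95-2.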

Additional observations from a re-analysis of the deposited data

How the results depend on the processing

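Of the 103 members tested, edgeR called 0, and the same count of 0 was found with DESeq2's size factors, the light chain V sum as library size, sex as a covariate, chromosome Y genes kept and each library left out. DESeq2 called 3 segments (Igkv2-112 and Igkv3-7 lower, Igkv4-59 higher), and without a filter on low counts edgeR called 1 (Igkv2-112). Of the list of constant, joining, recombination and transcription genes, 0 were called, but 3 of 35 without the filter (Spib, Vpreb3 and Iglc2; 2.76% of all genes), 2 of 28 in DESeq2 (Vpreb3 and Iglc2; 5.42% of all genes) and between 0 and 3 with a library left out, the 3 being Spib, Vpreb3 and Iglc2 without Control replicate 3, where 350 of all 18967 genes were called. Spib had 21593 and 23707 normalised counts in Control replicates 1 and 2 and 39195 in replicate 3. The cause of these differences was not tested.

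With a library left out, the difference between the group means ran from −65.1 to 51.8 CPM for the summed light chain V counts, from −0.927 to 0.066 percentage points for the lambda share, from −0.366 to 0.833 for the effective number of segments and from −0.264 to 0.571 percentage points for the distal share, so each changed direction in at least 1 of them. Counts per exon length gave a difference of −0.010 in the effective number of segments, and the other alternatives to the 4 values kept their direction. Leaving out a library also turned the log2 fold changes of Igkv4-81 (−0.012 to 0.57), Iglv2 (−0.12 to 0.12) and Iglv3 (−0.065 to 0.018).

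Replicate numbers are shared by different mice. Deviations from the group means over all genes tested correlated at −0.115, 0.061 and −0.130 for numbers 1, 2 and 3, so the numbers were not taken as pairs. Across groups the highest correlation was 0.203, between Control replicate 1 and Prmt1-null replicate 3, the 2 males. Pairs of females lay between 0.061 and 0.074, and pairs of a male and a female between −0.130 and −0.112. The replicate block gave 0 called members and 152 called genes in all, against 218 without it.

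Depth limits the rare segments: the 17 tested members under 0.1% had a median interval half-width of 0.89 on the log2 scale.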

Other observations

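The J segments of the kappa locus were used unevenly and much alike in the 6 libraries. Of the counts on Igkj1 to Igkj5, Igkj1 took 33.8% to 37.3% and Igkj2 27.4% to 28.8% over the 6 libraries, while Igkj5 took 20.99% to 23.7% and Igkj4 12.5% to 14.7%. Igkj3, which is not functional in the mouse, took 1.496%, 1.13% and 0.841% in Control and 0.680%, 0.836% and 0.640% in Prmt1-null iGBs. The Control libraries all lay above the Prmt1-null libraries. Igkj3 had between 44.4 and 88.7 normalised counts a library, and 19.9% of all genes tested were likewise apart in normalised counts, in either direction. In edgeR the log2 fold change of Igkj3 was −0.57 (95% interval −1.30 to 0.16, adjusted p = 0.501). Some counts on J segments can come from transcripts of unrearranged loci, and their part was not tested.

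Counts on V segments and on the constant genes stood in different ratios at the kappa and lambda loci. The kappa V segments together had 1.34, 1.23 and 1.13 counts per Igkc count in Control and 1.14, 1.16 and 1.18 in Prmt1-null iGBs. The lambda V segments had 0.321, 0.343 and 0.296 counts per Iglc2 count in Control and 0.241, 0.270 and 0.267 in Prmt1-null iGBs, with no overlap between the groups. This ratio was computed after the data had been seen and was given no test. Which constant gene the lambda V segments were spliced to was not measured, so the ratio need not compare parts of the same transcripts. Iglc2 shares sequence with Iglc3, which had no row under its symbol in the table.

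The lambda share of V counts was lowest in the male of each group, at 8.95% in Control replicate 1 and 8.58% in Prmt1-null replicate 3, whereas the 4 females lay between 9.69% and 10.5%. With 2 males this was noticed in the data and was not tested.

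Some V segment names in the table depend on the annotation used. The row named Igkv19-93 carries a gene ID that M21 names Igkv11-106. It had 1185, 1767 and 1444 counts in Control and 1527, 1831 and 2036 in Prmt1-null iGBs. A row with the clone name AC120404.1, which the rule did not take, carries the ID that M21 names Igkv19-93. That row had nearly the same counts in each library, 1189, 1806 and 1453 in Control and 1550, 1853 and 2053 in Prmt1-null iGBs. Whether the same reads were counted in both rows was not tested. Counts under these symbols refer to the gene IDs of the table.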
